A study of Mus musculus with 6 samples.

Results

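Bile acid synthesis, transport and control were followed through 35 genes in cultured primary mouse hepatocytes, out of 55487 genes in the deposited tables. The genes were chosen by function: 15 act in synthesis and conjugation, 6 in uptake, 6 in export across the canalicular membrane, 4 in export across the basolateral membrane and 4 in control. RNA sequencing gave 6 libraries in 2 groups. Alb/MDA-9 hepatocytes (3 libraries) came from heterozygous transgenic mice carrying human MDA-9/SDCBP (syntenin, a PDZ scaffold protein). Its C terminus bears an HA tag, and the enhancer and core promoter of mouse albumin, active in hepatocytes, drive it. WT hepatocytes (3 libraries) came from littermates without the transgene. All mice were on the B6CBAF1 background and ate regular chow, and the cultured cells of both groups received no treatment. The age and sex of the mice are not stated in the labels, nor whether the numbered libraries of a group came from separate animals, so each p-value reflects how much these libraries vary, and some of that variation may be technical. Littermates on a hybrid background can also differ in inherited strain segments, which cannot be told apart from the transgene.

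Bile acids are made from cholesterol in hepatocytes. The classic pathway begins with Cyp7a1 and the alternative pathway with Cyp27a1. The sterol rings are then modified, the side chain is shortened in peroxisomes, and the product is joined to taurine or glycine. Bile acids returning from the gut are taken up at the basolateral membrane, pumped into bile across the canalicular membrane, and in cholestasis also sent back to blood by basolateral exporters. The nuclear receptor FXR (gene Nr1h4) senses bile acids, induces the canalicular pump gene Abcb11 and, through SHP (gene Nr0b2) and the FGF receptor FGFR4 with its partner beta-Klotho, represses Cyp7a1.

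The libraries held 16403918 to 19046739 reads on the annotated strand of genes. Values are CPM, counts per 1e6 reads scaled by TMM factors. Before that scaling 3 reads in a library correspond to 0.158 to 0.183 CPM, a limit that covers counting error only. Hepatocyte markers such as Alb and Apoa1 were abundant in both groups. The 10 of 11 listed hepatocyte symbols found in the annotation summed to 79943 to 96091 CPM in Alb/MDA-9 libraries and 78390 to 81782 CPM in WT libraries, with 1 higher and 1 lower. The other, transferrin, was listed as Tf and is Trf in the annotation. Outside that sum, Trf averaged 9480.5 ± 514 CPM in Alb/MDA-9 and 6449 ± 177 CPM in WT (SD, n = 3 each) and rose (log2 change 0.56, edgeR adjusted p = 0.000643). Since only mouse genes were counted and the transgene is human, the tables do not check the genotype labels. On the second principal component, with 17.0% of the variance, Alb/MDA-9 3 lay far from the rest (score -32.87, against -2.59 to 16.2 in the other 5 libraries). Of 13 Kupffer cell markers 9 fell and 0 rose, with summed levels of 360 to 497 CPM in Alb/MDA-9 and 535 to 553 CPM in WT. Of 12 tested endothelial markers 5 fell and 0 rose, with sums of 207 to 227 CPM in Alb/MDA-9 and 267 to 290.1 CPM in WT. Of 13 tested markers of stellate cells and fibroblasts 6 fell and 0 rose, with sums of 338 to 393 CPM in Alb/MDA-9 and 474 to 484 CPM in WT. Of 3 tested neutrophil and monocyte markers 1 fell, and 0 of 11 lymphocyte markers passed the filter on low counts. Of 11 tested proliferation genes 10 fell and 0 rose, with sums of 130.2 to 164 CPM in Alb/MDA-9 and 254 to 264 CPM in WT. Called either way were 20% of tested hepatocyte markers, 69.2% of Kupffer, 41.7% of endothelial and 46.2% of stellate cell and fibroblast markers. The share was 33.3% of neutrophil and monocyte markers and 90.9% of proliferation genes, against 14.4% of all tested genes (7.09% lower, 7.35% higher). The part of these cell-type and proliferation differences in the results on bile acid genes was not tested.

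Bile acid genes changed in part and mostly downward. Of the 35 genes, 32 passed the filter on low counts, and of these 10 were lower and 2 were higher in Alb/MDA-9 (quasi-likelihood test of edgeR, p adjusted by Benjamini-Hochberg over all 13296 genes tested, under 0.05). That is 37.5% of the tested bile acid genes, where 14.4% of all tested genes changed, 7.09% downward and 7.35% upward. The genes that fell were the canalicular transporter genes Abcb11, Abcb4 and Abcb1a, the uptake carrier gene Slco1b2, the synthesis genes Akr1c6, Akr1d1, Slc27a2, Amacr and Cyp27a1, and the receptor gene Nr1h4. Those that rose were Cyp7b1 and Fgfr4. Of this pair Cyp7b1 alone passed when Alb/MDA-9 2 or Alb/MDA-9 3 or any WT library was left out. The median log2 change, Alb/MDA-9 over WT, was -0.21 over the 32 genes and -0.0015 over all tested genes. By class it was -0.070 for 14 synthesis and conjugation genes, -0.64 for 6 uptake genes, -0.39 for 6 canalicular genes, 0.063 for 3 basolateral genes and -0.26 for 3 control genes. Over the 14 alternatives the synthesis median was -0.18 to 0.014, above 0 without Alb/MDA-9 3 and -0.16 to -0.18 with library totals, no filter, the stricter filter, DESeq2 or unstranded counts. The uptake median was -0.77 to -0.42, lowest without WT 2 and nearest to 0 with the stricter filter, and the canalicular median -0.49 to -0.30. The stricter filter dropped the low-count uptake genes Slco1a4 and Slco2b1. Over the 4 uptake genes left the median was -0.42, level with -0.41 for the canalicular genes under that filter. The basolateral median was -0.057 to 0.22, below 0 with library totals, with the stricter filter or without Alb/MDA-9 3. Without Alb/MDA-9 1 or WT 3 the median of the control genes turned to 0.20 and 0.062, and without WT 3 that of all members was -0.13. Genes are not replicates and no test was made between the classes. Alb/MDA-9 and WT libraries did not overlap for 17 of the 32 genes, 14 lower and 3 higher in Alb/MDA-9, against 33.6% of all tested genes. In bulk RNA, fewer cells of a type and less RNA per cell cannot be told apart.

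**Figure D1:**
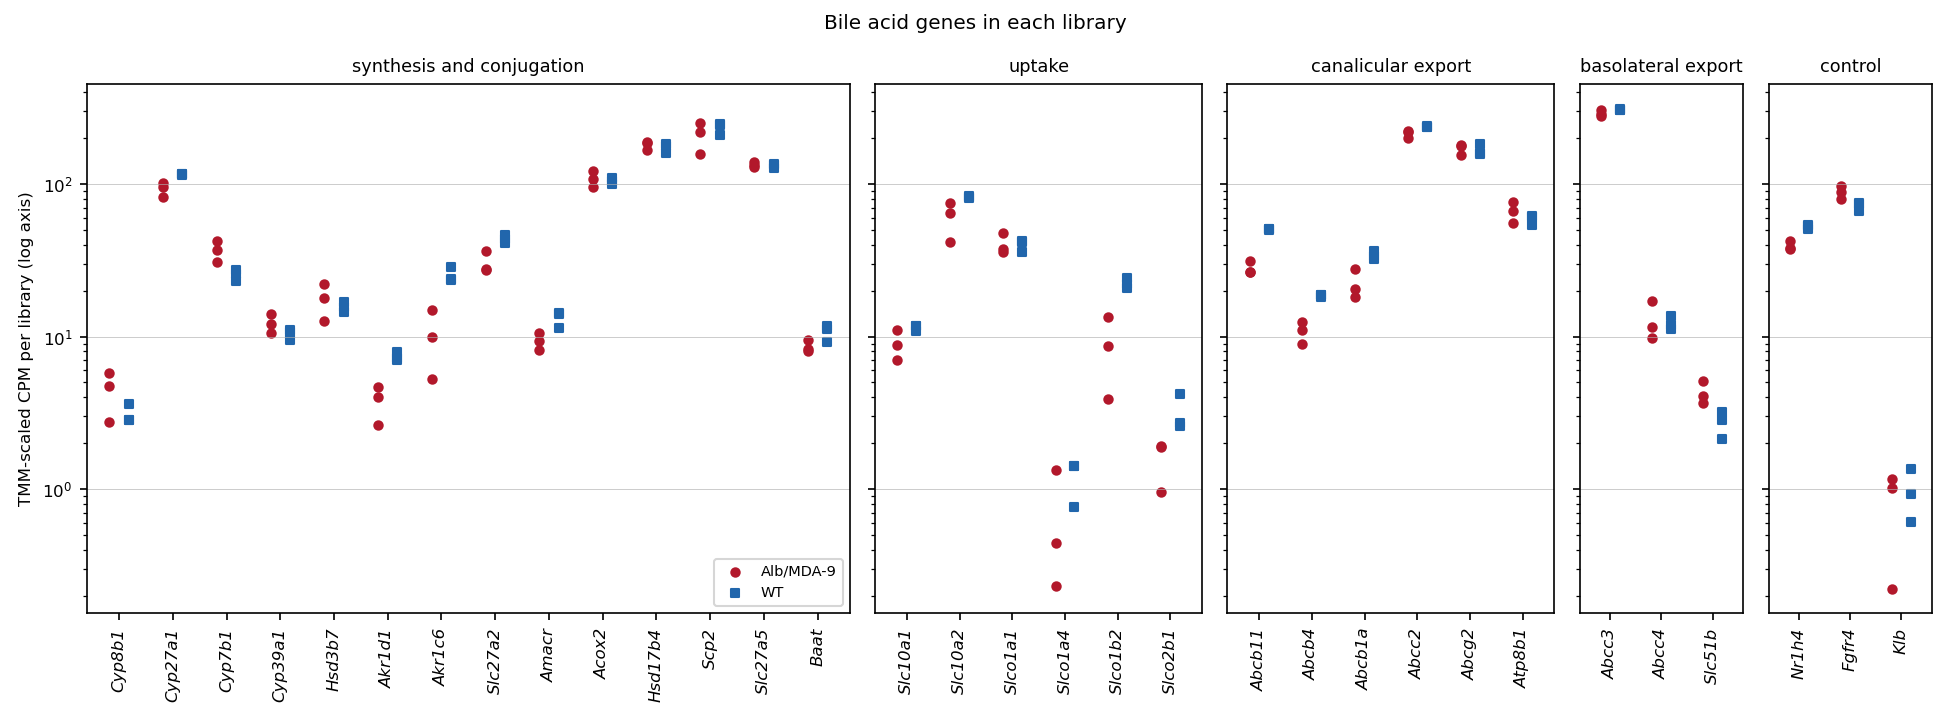
Level of each of the 32 tested bile acid genes in every library, in TMM-scaled CPM on a log axis, with Alb/MDA-9 libraries as circles on the left of each pair and WT libraries as squares on the right. Abcb11, Abcb4, Slco1b2 and Akr1c6 lie lower in all 3 Alb/MDA-9 libraries than in any WT library, while Abcc3, Abcc2 and Abcg2 stay above 150 CPM in all 6.

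**Figure D2:**
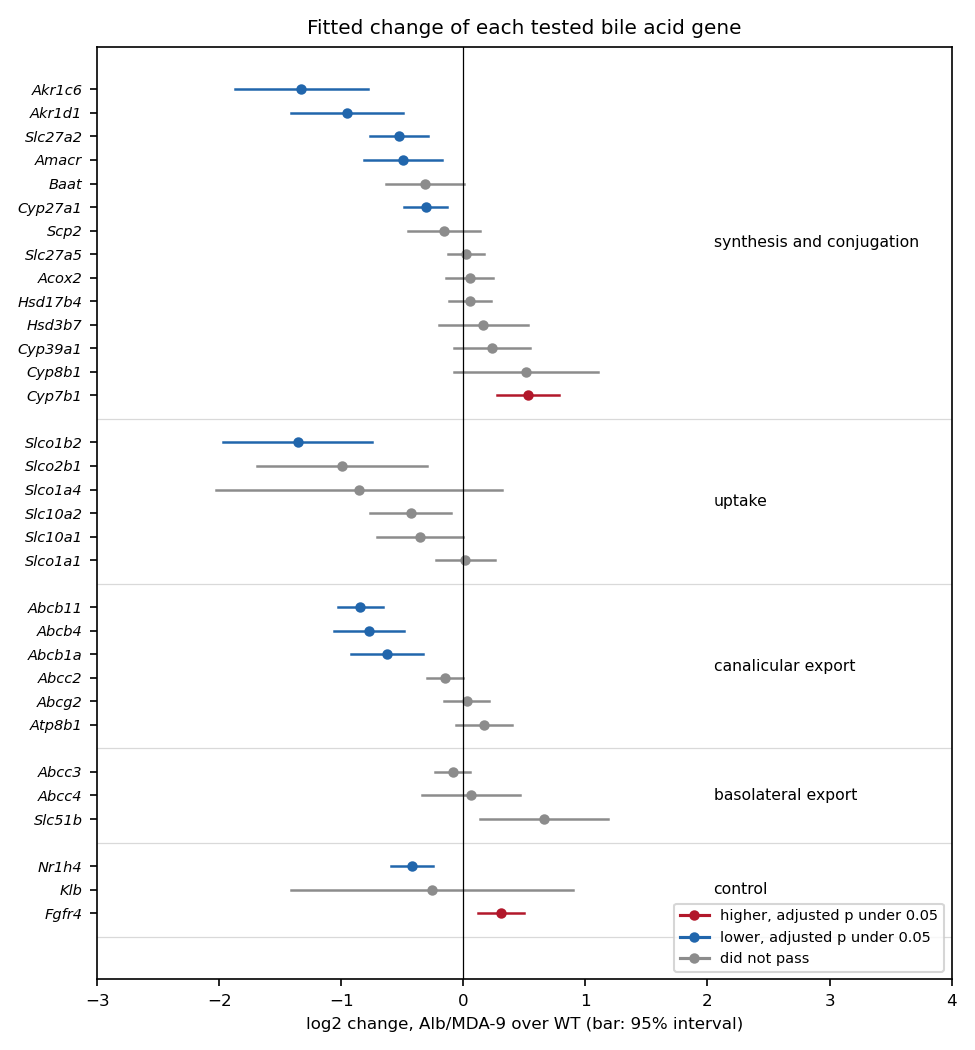
Fitted log2 change of each tested gene, Alb/MDA-9 over WT, with its 95% interval, grouped by class and coloured by whether the gene passed the edgeR test. The intervals of the 10 genes that fell and the 2 that rose exclude 0, and Slc10a2, Slco2b1, Slc10a1, Abcc2 and Slc51b also exclude 0 without passing the adjusted threshold.

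The first step of the classic pathway was hardly read in these cultures. Cyp7a1, the rate-limiting enzyme gene of bile acid synthesis (ENSMUSG00000028240, chromosome 4, 6265612 to 6275633), had 1, 0 and 0 reads in Alb/MDA-9 1, 2 and 3 and 1, 1 and 0 reads in WT 1, 2 and 3. These counts are at or under the limit of 3 reads in every library, so no difference was detectable at this depth. Cyp8b1, the sterol 12-alpha-hydroxylase gene that sets the share of cholic acid, had 4.75, 5.77 and 2.77 CPM in Alb/MDA-9, against 2.83, 3.64 and 2.84 CPM in WT. Alb/MDA-9 3 lay below all WT libraries and the other Alb/MDA-9 libraries above them, and the gene did not pass (log2 change 0.51, 95% interval -0.076 to 1.10, edgeR adjusted p = 0.240). Without Alb/MDA-9 3 it passed as higher, with a log2 change of 0.76 (edgeR adjusted p = 0.0319; over all alternatives 0.0319 to 0.609).

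The enzymes at the head of the alternative pathway moved apart. Cyp27a1, the mitochondrial sterol 27-hydroxylase gene (ENSMUSG00000026170, chromosome 1, 74713574 to 74737892), had 96.0, 102 and 82.7 CPM in Alb/MDA-9 libraries 1, 2 and 3, against 116, 117 and 114 CPM in WT libraries 1, 2 and 3. The groups did not overlap, and the gene fell by a small amount (log2 change -0.31, SE 0.082, edgeR adjusted p = 0.0246). Cyp7b1, the oxysterol 7-alpha-hydroxylase gene that acts next (ENSMUSG00000039519, chromosome 3, 18071950 to 18243338), had 42.1, 37.0 and 30.8 CPM in Alb/MDA-9 libraries 1, 2 and 3, against 27.3, 25.8 and 23.1 CPM in WT libraries 1, 2 and 3. All 3 Alb/MDA-9 libraries were above the highest WT library, and the gene rose (log2 change 0.53, SE 0.12, edgeR adjusted p = 0.00907). Per length of exon, the ratio of Cyp7b1 to Cyp27a1 within a library was 0.440, 0.365 and 0.373 in Alb/MDA-9 1, 2 and 3, against 0.236, 0.221 and 0.203 in WT 1, 2 and 3. With Cyp7b1 higher and Cyp27a1 lower in every Alb/MDA-9 library, these ratios had to part, so they are not a further result. They were chosen with the gene values known and are given without a test. Cyp39a1, a hydroxylase of 24-hydroxycholesterol, had 10.6, 12.0 and 14.1 CPM in Alb/MDA-9, against 11.0, 9.48 and 10.7 CPM in WT, with overlapping groups, and did not pass (edgeR adjusted p = 0.314). The Cyp7b1 call held in all 14 alternatives, and the Cyp27a1 call ended when any single WT library was left out (edgeR adjusted p 0.00307 to 0.0977 over the alternatives).

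Among the enzymes that modify the sterol rings, the later reductases fell. Akr1d1, the steroid 5-beta-reductase gene that gives bile acids their bent ring junction (ENSMUSG00000038641, chromosome 6, 37530173 to 37568815), had 4.70, 4.02 and 2.65 CPM in Alb/MDA-9 libraries 1, 2 and 3, against 7.02, 7.23 and 7.87 CPM in WT libraries 1, 2 and 3. No Alb/MDA-9 library reached the lowest WT library (log2 change -0.95, SE 0.21, edgeR adjusted p = 0.00954). Akr1c6, a hydroxysteroid dehydrogenase gene of the aldo-keto reductase family (ENSMUSG00000021210, chromosome 13, 4434306 to 4457877), had 14.9, 9.90 and 5.24 CPM in Alb/MDA-9 libraries 1, 2 and 3, against 28.5, 23.6 and 23.7 CPM in WT libraries 1, 2 and 3. Alb/MDA-9 3 held the lowest level and the groups did not overlap (log2 change -1.33, SE 0.25, edgeR adjusted p = 0.00394). Without Alb/MDA-9 3 the log2 change of Akr1c6 was -1.02 and without Alb/MDA-9 1 it was -1.73, and the call held in all alternatives. Neighbouring genes of the same cluster on chromosome 13 did not all move with it. Akr1c14 and Akr1c19 fell, with log2 changes of -1.08 (SE 0.14) and -1.27 (SE 0.25). Akr1c12 and Akr1c13, which lie between Akr1c14 and Akr1c6, had log2 changes of -0.045 (95% interval -0.25 to 0.16) and 0.11 (-0.10 to 0.31) and did not pass. Beyond Akr1c6, Akr1c20 was lower without overlap and did not pass (log2 change -0.82, SE 0.27, edgeR adjusted p = 0.0660). Below the low-count filter, Akr1c21 had 0 reads in Alb/MDA-9 and 13 in WT, and Akr1c18 had 9 in Alb/MDA-9 and 2 in WT. Hsd3b7, the enzyme gene that sets the ring double bond and ketone early in both pathways, had 17.8, 22.1 and 12.7 CPM in Alb/MDA-9, against 14.5, 15.7 and 16.9 CPM in WT and did not pass (edgeR adjusted p = 0.571). It shares 1717 of its 2769 exon bases with the gene Gm49388 on the same strand, where reads match both genes, so its level is uncertain.

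Of the 5 side-chain shortening genes Slc27a2 and Amacr fell, or 40% against 14.4% of all tested genes, and the other 3 did not pass. Slc27a2, which encodes a very long-chain acyl-CoA synthetase that activates the side chain (ENSMUSG00000027359, chromosome 2, 126552407 to 126588243), had 36.2, 27.8 and 27.1 CPM in Alb/MDA-9 libraries 1, 2 and 3, against 41.3, 46.4 and 43.4 CPM in WT libraries 1, 2 and 3. Every Alb/MDA-9 library lay below the WT libraries (log2 change -0.52, SE 0.11, edgeR adjusted p = 0.00688). Amacr, the racemase gene that turns the side chain into the form the oxidase accepts (ENSMUSG00000022244, chromosome 15, 10981756 to 10996626), had 9.28, 8.21 and 10.5 CPM in Alb/MDA-9 libraries 1, 2 and 3, against 11.3, 14.3 and 14.0 CPM in WT libraries 1, 2 and 3. The groups did not overlap, with a narrow gap (log2 change -0.50, SE 0.15, edgeR adjusted p = 0.0404), and the call ended without Alb/MDA-9 1, Alb/MDA-9 2, WT 2 or WT 3 and with the replicate number as a block (edgeR adjusted p 0.0131 to 0.167 over the alternatives). The oxidase gene Acox2, the multifunctional enzyme gene Hsd17b4 and the thiolase gene Scp2 did not pass. Acox2 averaged 108 ± 13.2 CPM in Alb/MDA-9 and 105 ± 4.96 CPM in WT (SD, n = 3 each; 95% interval of the log2 change -0.14 to 0.25). Hsd17b4 averaged 179 ± 11.7 CPM in Alb/MDA-9 and 173 ± 12.1 CPM in WT (SD, n = 3 each; 95% interval -0.12 to 0.22). Scp2 had 252, 218 and 157 CPM in Alb/MDA-9, against 208, 245 and 248 CPM in WT, where Alb/MDA-9 3 was below all others, and its reads may be shared with the pseudogene Scp2-ps2, 99.6% identical over 1371 bases.

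The conjugation genes did not pass. Slc27a5, the bile acyl-CoA synthetase gene, averaged 134 ± 5.33 CPM in Alb/MDA-9 and 132 ± 4.28 CPM in WT (SD, n = 3 each), and the 95% interval of its log2 change was -0.13 to 0.17. Baat, the gene of the acyltransferase that joins bile acids to taurine or glycine, had 8.01, 9.55 and 8.25 CPM in Alb/MDA-9, against 11.8, 9.23 and 11.1 CPM in WT (log2 change -0.31, 95% interval -0.64 to 0.0067, edgeR adjusted p = 0.188), and a single WT library overlapped the Alb/MDA-9 range. Acnat2, a neighbour of Baat in the acyltransferase cluster on chromosome 4, rose, with 41.6, 44.4 and 46.8 CPM in Alb/MDA-9, against 28.3, 23.0 and 27.9 CPM in WT (log2 change 0.75, SE 0.10, edgeR adjusted p = 0.000318).

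Of the control genes, the bile acid receptor fell and the FGF receptor rose, both by small amounts. Nr1h4, which encodes FXR (ENSMUSG00000047638, chromosome 10, 89454234 to 89533585), had 38.0, 37.3 and 42.4 CPM in Alb/MDA-9 libraries 1, 2 and 3, against 54.0, 53.3 and 50.6 CPM in WT libraries 1, 2 and 3. The highest Alb/MDA-9 library was below the lowest WT library (log2 change -0.42, SE 0.079, edgeR adjusted p = 0.00364), and the call held in all 14 alternatives. Nr0b2, the gene of the repressor SHP and an FXR target, had 0, 1 and 3 reads in Alb/MDA-9 1, 2 and 3 and 12, 3 and 6 reads in WT 1, 2 and 3. Summed, that is 4 reads in Alb/MDA-9 and 21 in WT, a ratio of 0.206 with a 95% counting interval of 0.0515 to 0.612. The gene was below the low-count filter, and without that filter it did not pass (edgeR adjusted p = 0.217, unadjusted p = 0.0352). Fgfr4 (ENSMUSG00000005320, chromosome 13, 55152640 to 55168759) had 79.6, 88.8 and 97.6 CPM in Alb/MDA-9 libraries 1, 2 and 3, against 74.5, 74.3 and 66.2 CPM in WT libraries 1, 2 and 3, with groups that did not overlap (log2 change 0.31, SE 0.087, edgeR adjusted p = 0.0342). Its call ended in 9 of 14 alternatives, which were the removal of any library except Alb/MDA-9 1, library totals, upper-quartile factors, the replicate block and the stricter low-count filter (edgeR adjusted p 0.00881 to 0.166 over the alternatives). Klb, the gene of the coreceptor beta-Klotho, was near the limit of detection at 0.221, 1.16 and 1.02 CPM in Alb/MDA-9, against 0.606, 0.923 and 1.36 CPM in WT, with overlapping groups and a wide interval of its log2 change (-1.41 to 0.90).

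FXR binds as a heterodimer with RXR to inverted repeats of the nuclear receptor half-site AGGTCA spaced by 1 base, that is AGGTCA, any base, then TGACCT, which reads the same on both strands. The 250 bases before the RefSeq start were searched in the 33 RefSeq promoters held for 26 of the 35 genes. Some RefSeq starts differ from the GENCODE gene coordinates given elsewhere here. The only Abcb1a window (chromosome 5, 8566841 to 8567090) lies far before the GENCODE start at 8660077. The only Nr1h4 and Scp2 windows lie inside the GENCODE gene. A match with at most 1 of the 12 fixed letters different stood in 2 of the 33 promoters, those of Abcb11 and Slco1b2, against 26 of 32851 promoters of all genes (0.0791%). With at most 3 letters different the count was 10 of 33 promoters, from 9 of 26 genes, against 9.63% of all promoters. Of the other genes that fell, the best match had 3 letters different in Slc27a2, 4 in Abcb4, Akr1d1, Cyp27a1 and Nr1h4, and 5 in Abcb1a and Akr1c6. Amacr, which also fell, had no promoter in the set. A best match with 3 letters different also stood in Abcg2, Cyp8b1, Slc10a1, Slco1a1 and Slc51b, which did not pass. The same held for Slc51a, which was not tested. The Abcb11 and Slco1b2 promoters are shown because they hold the closest matches of the set, and that of Slc51b, picked with its values known, because it is a textbook FXR target that did not pass. Sequences are from RefSeq on GRCm38.p6, written 5′ to 3′ on the strand of the gene and ending at the base before the RefSeq start. Capitals mark the best match, with 1 letter different in Abcb11 and Slco1b2 and 3 letters different in Slc51b.
Abcb11 (chr2:69342617-69342866, minus strand): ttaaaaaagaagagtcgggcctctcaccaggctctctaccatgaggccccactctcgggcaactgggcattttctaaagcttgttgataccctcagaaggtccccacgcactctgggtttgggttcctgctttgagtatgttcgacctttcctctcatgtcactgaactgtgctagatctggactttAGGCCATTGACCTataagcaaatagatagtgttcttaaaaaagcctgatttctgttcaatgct
Slco1b2 (chr6:141629268-141629517, plus strand): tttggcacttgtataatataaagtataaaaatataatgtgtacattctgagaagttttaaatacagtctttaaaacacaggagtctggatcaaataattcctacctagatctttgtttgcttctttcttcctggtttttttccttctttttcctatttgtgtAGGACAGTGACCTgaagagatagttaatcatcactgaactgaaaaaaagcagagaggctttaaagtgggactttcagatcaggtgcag
Slc51b (chr9:65422774-65423023, minus strand): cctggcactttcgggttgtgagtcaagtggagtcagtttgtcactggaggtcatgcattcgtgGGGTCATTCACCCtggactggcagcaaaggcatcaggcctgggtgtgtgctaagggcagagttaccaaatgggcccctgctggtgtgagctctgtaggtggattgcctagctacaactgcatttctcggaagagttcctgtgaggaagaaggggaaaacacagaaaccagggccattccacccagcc
The match began 63 bases before the RefSeq start in Abcb11, 88 bases before it in Slco1b2 and 187 bases before it in Slc51b. In GENCODE the Slc51b gene starts within this window, at 65422955 on the minus strand, and the marked match spans that base. A match describes the letters only, and binding was not measured.

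Uptake carriers were lower in 5 of 6 fitted values, and 1 passed, or 16.7%, near the 14.4% of all tested genes. Over all 13296 tested genes 6683 fitted values were below 0. Slco1b2, the gene of a liver organic anion carrier that takes up bile acids without sodium (ENSMUSG00000030236, chromosome 6, 141629518 to 141686646), had 13.4, 8.68 and 3.91 CPM in Alb/MDA-9 libraries 1, 2 and 3, against 22.0, 24.3 and 20.7 CPM in WT libraries 1, 2 and 3. The lowest WT library exceeded the highest Alb/MDA-9 library, and Alb/MDA-9 3 was the lowest of all (log2 change -1.36, SE 0.28, edgeR adjusted p = 0.00666). The log2 change was -1.01 without Alb/MDA-9 3 and -1.82 without Alb/MDA-9 1, and the call held in all alternatives. Slco1a1, another organic anion carrier gene on chromosome 6, did not pass. It averaged 40.4 ± 6.41 CPM in Alb/MDA-9 and 39.9 ± 3.55 CPM in WT (SD, n = 3 each), and the 95% interval of its log2 change was -0.23 to 0.26. Per length of exon the ratio of Slco1b2 to Slco1a1 was 0.301, 0.247 and 0.117 in Alb/MDA-9 1, 2 and 3, against 0.656, 0.623 and 0.525 in WT 1, 2 and 3. This ratio was chosen with the gene values known and is given without a test. Slco1a4 had 4 to 22 reads in the Alb/MDA-9 libraries and 15 to 28 in the WT libraries, and its log2 change of -0.85 (95% interval -2.02 to 0.32) did not pass. Without Alb/MDA-9 3, which held the 22 reads, its log2 change was -1.80 and passed (edgeR adjusted p = 0.0345; 0.0345 to 0.655 over the alternatives). Slco2b1, a carrier gene of wider tissue distribution that overlaps antisense genes, had 1.88, 1.92 and 0.963 CPM in Alb/MDA-9, against 4.19, 2.72 and 2.60 CPM in WT, without overlap, and missed the threshold (log2 change -0.99, edgeR adjusted p = 0.0591). It passed with the unstranded counts, with library totals and with no filter on low counts (edgeR adjusted p 0.00939 to 0.248 over the alternatives).

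Neither sodium-dependent bile acid carrier gene passed, and within Alb/MDA-9 both were lowest in library 3. Slc10a1, which encodes NTCP, the main sodium-dependent carrier of hepatocytes, had 11.0, 8.74 and 7.04 CPM in Alb/MDA-9 libraries 1, 2 and 3, against 11.7, 11.7 and 10.9 CPM in WT libraries 1, 2 and 3. The groups touched, with Alb/MDA-9 1 inside the WT range, and the gene did not pass (log2 change -0.35, 95% interval -0.71 to -0.0015, edgeR adjusted p = 0.177). It passed in a single alternative, without Alb/MDA-9 1 (log2 change -0.53), and without Alb/MDA-9 3 its log2 change was -0.21 (edgeR adjusted p 0.0462 to 0.362 over the alternatives). Slc10a2, which encodes ASBT, the apical carrier known from ileum and bile duct cells, was the more abundant of the pair, with 75.3, 64.6 and 42.0 CPM in Alb/MDA-9 libraries 1, 2 and 3, against 82.9, 80.5 and 82.2 CPM in WT libraries 1, 2 and 3. All Alb/MDA-9 libraries were below the WT libraries, which lay close together, and the gene did not pass (log2 change -0.43, 95% interval -0.76 to -0.10, edgeR adjusted p = 0.0813). Slc10a2 passed in 5 alternatives. These were library totals, no filter on low counts, DESeq2, leaving out Alb/MDA-9 1 and the replicate block (adjusted p 1.52e-05 to 0.182 over all alternatives). The lowest of these p-values came with no filter, where the log2 change of Slc10a2 was -0.44. Without Alb/MDA-9 3 its log2 change was -0.23. A stretch of 118 bases is 95.8% identical in Reep3, an abundant gene, so some reads may have been dropped or exchanged there. Per length of exon Slc10a2 was above Slc10a1 by a ratio of 3.62, 3.92 and 3.16 in Alb/MDA-9 1, 2 and 3 and of 3.76, 3.63 and 3.998 in WT 1, 2 and 3. The ratio was chosen with the gene values known and is given without a test. Of 14 cholangiocyte markers 10 were tested, 4 rose and 2 fell, or 60%, against 14.4% of all tested genes. The sum of the list was 801 to 854 CPM in Alb/MDA-9 and 325 to 348 CPM in WT. The median log2 change of the tested markers was 0.24, in a range of -1.71 (Krt7) to 7.77 (Spp1). Spp1 had 171, 195 and 279 CPM in Alb/MDA-9, against 1.36, 0.769 and 0.769 CPM in WT, and Cldn4 had 477, 453 and 433 CPM in Alb/MDA-9, against 182, 198 and 209 CPM in WT, while Cftr had no read in any library. The part of these markers in the Slc10a2 values was not tested.

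**Figure D3:**
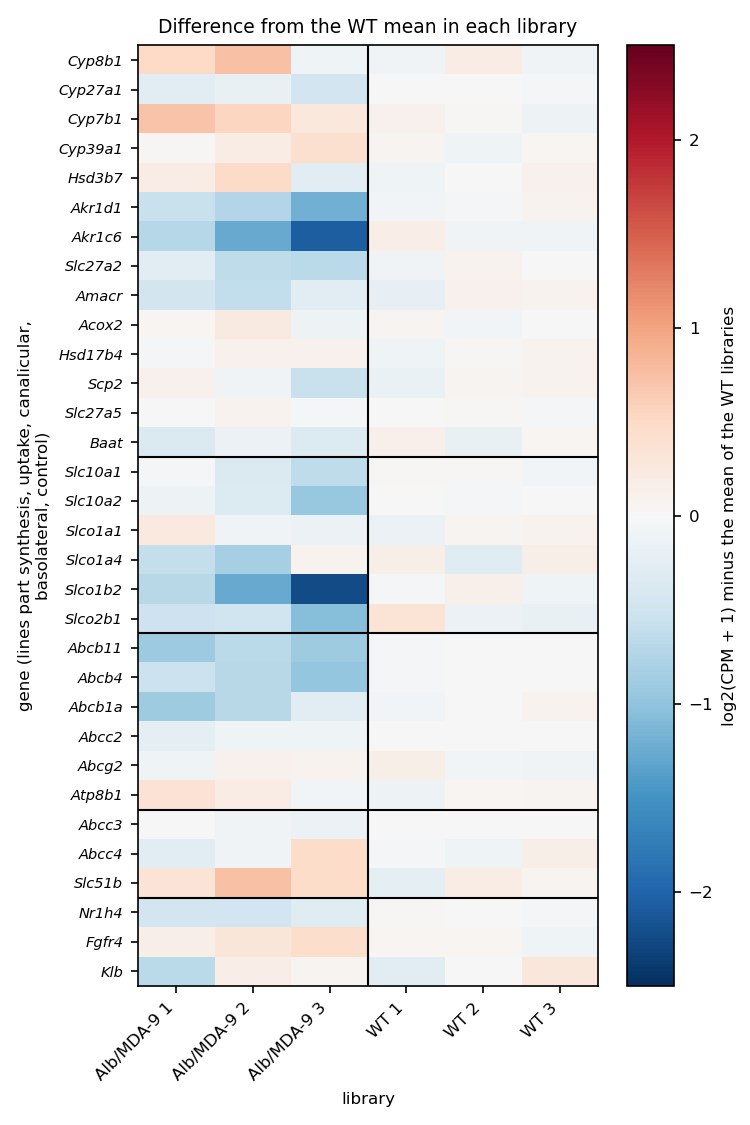
Difference of each tested gene in each library from the mean of the WT libraries, on the log2(CPM + 1) scale, with Alb/MDA-9 libraries in the left columns and WT libraries in the right ones. The deepest falls are Akr1c6 and Slco1b2 in Alb/MDA-9 3, and Abcb11 and Abcb4 are low in all 3 Alb/MDA-9 libraries.

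The canalicular genes divided into 3 that fell, or 50% against 14.4% of all tested genes, and 3 that did not pass. Abcb11, the gene of the bile salt export pump (ENSMUSG00000027048, chromosome 2, 69238282 to 69342616), had 26.4, 31.3 and 26.7 CPM in Alb/MDA-9 libraries 1, 2 and 3, against 49.6, 51.1 and 50.5 CPM in WT libraries 1, 2 and 3. The gap between the groups was several times the spread within them, and the adjusted p was the lowest of the bile acid genes (log2 change -0.84, 95% interval -1.03 to -0.66, edgeR adjusted p = 5.33e-05). Abcb4, the gene of the flippase that carries phosphatidylcholine into bile (ENSMUSG00000042476, chromosome 5, 8893717 to 8959231), had 12.5, 11.1 and 8.97 CPM in Alb/MDA-9 libraries 1, 2 and 3, against 18.2, 18.8 and 18.7 CPM in WT libraries 1, 2 and 3, again without overlap (log2 change -0.77, SE 0.13, edgeR adjusted p = 0.00195). Abcb1a, a multidrug exporter gene (ENSMUSG00000040584, chromosome 5, 8660077 to 8748575), had 18.1, 20.6 and 27.8 CPM in Alb/MDA-9 libraries 1, 2 and 3, against 32.5, 33.8 and 36.4 CPM in WT libraries 1, 2 and 3. Alb/MDA-9 3 was the highest of its group and still below WT (log2 change -0.63, SE 0.13, edgeR adjusted p = 0.00810), and the call ended without Alb/MDA-9 2 (edgeR adjusted p 2.19e-07 to 0.05001 over the alternatives). Abcb1a and Abcb4 are neighbours on chromosome 5 with Abcb1b between them, and Abcb1b fell as well (log2 change -0.50, SE 0.12, edgeR adjusted p = 0.0127). These 3 genes have stretches of 177 to 183 bases that are 97.8% to 98.9% identical, where reads may have been dropped or exchanged. The Abcb11 and Abcb4 calls held in all alternatives.

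The remaining canalicular genes did not pass. Abcc2, which encodes MRP2, the exporter of bilirubin and glutathione conjugates, had 201, 221 and 219.7 CPM in Alb/MDA-9, against 240.0, 236 and 237 CPM in WT. The groups did not overlap, yet the difference was small and did not pass (log2 change -0.15, 95% interval -0.30 to -0.004, edgeR adjusted p = 0.167), and it passed with library totals. Abcg2, the gene of a broad exporter of organic anions, averaged 169.8 ± 13.4 CPM in Alb/MDA-9 and 166 ± 14.7 CPM in WT (SD, n = 3 each; 95% interval of the log2 change -0.15 to 0.21). Atp8b1, the gene of an aminophospholipid flippase needed for a stable canalicular membrane, had 76.1, 66.7 and 55.8 CPM in Alb/MDA-9, against 53.6, 61.2 and 62.0 CPM in WT, with overlap, and did not pass (edgeR adjusted p = 0.327). It passed as higher without Alb/MDA-9 3 (log2 change 0.28; edgeR adjusted p 0.0382 to 0.752 over the alternatives).

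Of the 3 tested basolateral exporter genes 0 passed in edgeR or DESeq2, and 1, Slc51b, had an unadjusted p under 0.05. Over all tested genes 14.4% passed in edgeR, so a count of 0 in so few genes says little. Abcc3, which encodes MRP3, was the most abundant transporter gene of the set, with 304, 289 and 277 CPM in Alb/MDA-9 libraries 1, 2 and 3, against 307, 312 and 306 CPM in WT libraries 1, 2 and 3. The groups were separated by a gap smaller than the spread in Alb/MDA-9, and the 95% interval of the log2 change was -0.23 to 0.058 (edgeR adjusted p = 0.428). Abcc4, which encodes MRP4, had 9.84, 11.5 and 17.2 CPM in Alb/MDA-9, against 11.9, 11.2 and 13.7 CPM in WT, with Alb/MDA-9 3 above all other libraries (95% interval -0.34 to 0.47). Slc51b, the beta chain of the heteromeric transporter OSTalpha-OSTbeta and a known FXR target, had 3.65, 5.12 and 4.09 CPM in Alb/MDA-9 libraries 1, 2 and 3, against 2.12, 3.178 and 2.84 CPM in WT libraries 1, 2 and 3. All Alb/MDA-9 libraries were above WT, but the gene missed the threshold (log2 change 0.66, 95% interval 0.14 to 1.18, edgeR adjusted p = 0.0901; 0.0752 to 0.273 over the alternatives). Slc51a, the alpha chain, had 0 reads in all 6 libraries, which allows up to 0.158 to 0.183 CPM in a library before TMM scaling.

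Canalicular and basolateral export can be set side by side within a library. Per length of exon, the ratio of Abcb11 to Abcc3 was 0.0959, 0.1198 and 0.107 in Alb/MDA-9 1, 2 and 3, against 0.179, 0.181 and 0.183 in WT 1, 2 and 3. The ratio of Abcb11 to Abcc2, both canalicular, was 0.217, 0.235 and 0.201 in Alb/MDA-9 and 0.343, 0.359 and 0.353 in WT. Both ratios were lower in every Alb/MDA-9 library than in any WT library. The ratio of Abcc3 to Abcc2 was 2.26, 1.96 and 1.89 in Alb/MDA-9 and 1.92, 1.98 and 1.93 in WT, and those ranges overlapped. These ratios were chosen with the gene values known and are given without a test.

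On the scale of CPM per kilobase of annotated exon, which allows genes to be compared, Scp2, Slc27a5, Abcc3, Cyp27a1 and Hsd17b4 were the most abundant of the tested genes in WT. Scp2 had 60.1 ± 13.8 CPM per kilobase in Alb/MDA-9 and 67.2 ± 6.35 in WT (SD, n = 3 each), and Abcc3 had 50.9 ± 2.41 CPM per kilobase in Alb/MDA-9 and 54.1 ± 0.595 in WT. Abcc3 was above the canalicular Abcc2, with 25.1 ± 1.29 CPM per kilobase in Alb/MDA-9 and 27.9 ± 0.249 in WT, and both were above Abcb11, with 5.46 ± 0.535 CPM per kilobase in Alb/MDA-9 and 9.79 ± 0.140 in WT. Of the sodium-dependent pair, Slc10a2 stood at 14.6 ± 4.09 CPM per kilobase in Alb/MDA-9 and 19.7 ± 0.287 in WT, and Slc10a1 at 4.06 ± 0.901 CPM per kilobase in Alb/MDA-9 and 5.20 ± 0.214 in WT. Slc27a5, Abcc3, Cyp27a1 and Hsd17b4 lay between 50.8 and 54.2 in WT, within the spread of Hsd17b4, and their order there is not resolved. Slco2b1, Klb and Slco1a4 were lowest, under 1 CPM per kilobase in both groups.

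**Figure D4:**
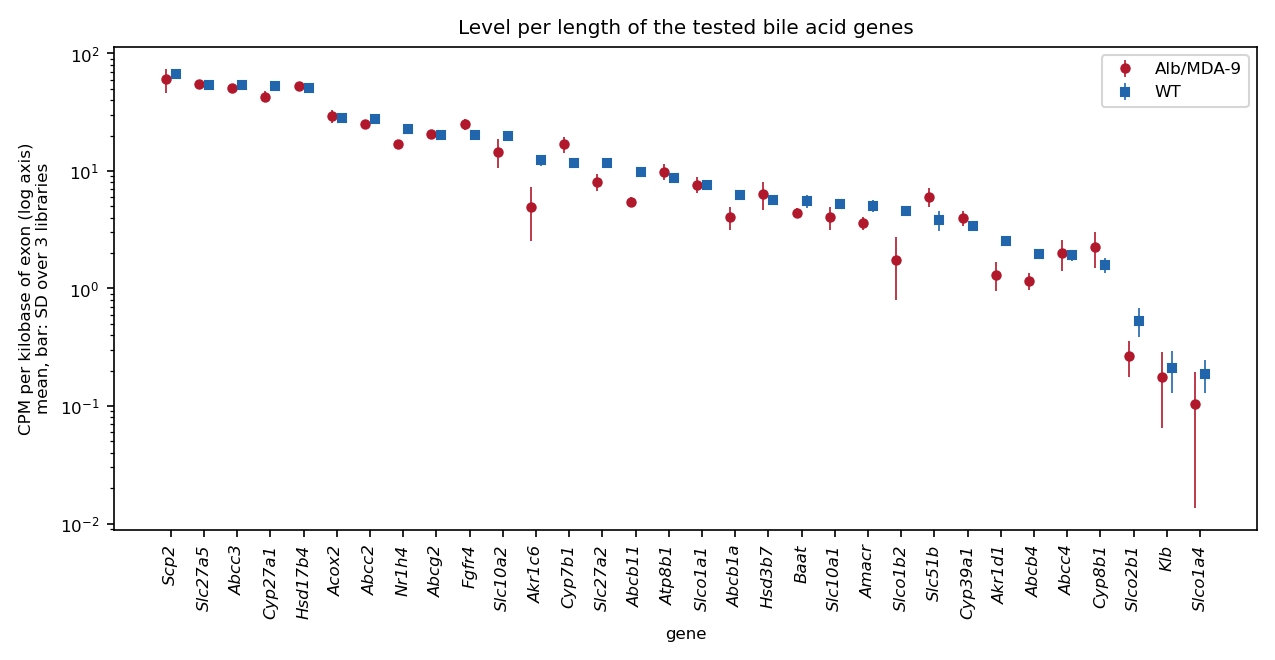
Mean level of each tested gene in CPM per kilobase of annotated exon, on a log axis, with the SD over 3 libraries as bars, Alb/MDA-9 as circles left of WT as squares, ordered by the WT level. Akr1c6, Slco1b2 and Abcb11 drop below their neighbours in Alb/MDA-9, while Scp2, Slc27a5 and Abcc3 stay near the top in both groups.

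Alb/MDA-9 3 often held the lowest value of its group, and held the highest less often than over all genes. It was the lowest of the 3 Alb/MDA-9 libraries for 18 of the 32 genes (56.2%), against 36.1% of all tested genes. By class these were 10 of 14 synthesis and conjugation genes, 5 of 6 uptake genes, 2 of 6 canalicular genes, 1 of 3 basolateral genes and 0 of 3 control genes. It was the highest for 8 of the 32 (25%), including Abcb1a, Abcc4, Fgfr4 and Nr1h4, against 36.7% of all tested genes. The median difference of the uptake genes from the WT mean, on the log2(CPM + 1) scale, was -0.32, -0.42 and -0.79 in Alb/MDA-9 1, 2 and 3, and that of the canalicular genes was -0.39, -0.39 and -0.20. Leaving Alb/MDA-9 3 out gave 11 lower and 3 higher bile acid genes. Of the 10 tested hepatocyte markers 7 were also lowest in Alb/MDA-9 3 within that group. Of the 13 Kupffer markers 2 were lowest there and 10 were highest, and the low Kupffer sum of this library, 360 CPM, followed Cd68, which had 322, 284 and 137 CPM in Alb/MDA-9, against 262, 267 and 284 CPM in WT. The part of these markers in the values of this library was not tested.

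Further genes of the pathway, taken from 4 lists chosen by function, moved in both directions. Of 23 tested transcription factor and signalling genes 4 rose and 3 fell, or 30.4%, against 14.4% of all tested genes (median log2 change 0.10). Nr1i3, which encodes the xenobiotic receptor CAR, had 0.553, 0.0582 and 0.120 CPM in Alb/MDA-9, against 1.46, 2.26 and 1.36 CPM in WT, and all Alb/MDA-9 libraries were below WT, Alb/MDA-9 2 and 3 under the limit of 3 reads (log2 change -2.74, SE 0.57, edgeR adjusted p = 0.00683). Nr1i2, which encodes PXR, a receptor that also responds to bile acids, fell less, with 30.6, 25.0 and 25.7 CPM in Alb/MDA-9, against 33.6, 39.6 and 38.4 CPM in WT (log2 change -0.45, SE 0.10). Prox1, a hepatocyte regulator known to restrain Cyp7a1, rose, with 102, 99.1 and 84.4 CPM in Alb/MDA-9, against 60.5, 58.8 and 66.4 CPM in WT (log2 change 0.62, SE 0.087, edgeR adjusted p = 0.000514). Nr5a2, which encodes LRH-1, an activator of Cyp7a1 and Cyp8b1, had 29.4, 26.5 and 25.6 CPM in Alb/MDA-9, against 17.5, 22.2 and 22.4 CPM in WT and rose (log2 change 0.39, SE 0.11). Of this list Gpbar1 and Fgf15 had no read in any library.

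Of 32 tested further enzymes 2 rose and 8 fell, or 31.2%, against 14.4% of all tested genes (median log2 change -0.044). Cyp46a1, the cholesterol 24-hydroxylase gene best known from brain, had 2.71, 2.62 and 2.71 CPM in Alb/MDA-9, against 11.8, 13.3 and 12.4 CPM in WT, and the libraries within each group lay close together (log2 change -2.22, SE 0.16, edgeR adjusted p = 2.36e-06). Ch25h, the cholesterol 25-hydroxylase gene, had 2.60, 3.09 and 2.47 CPM in Alb/MDA-9, against 5.25, 5.79 and 5.33 CPM in WT (log2 change -1.004, SE 0.20). Akr1c14, a 3-alpha-hydroxysteroid dehydrogenase gene, had 7.07, 9.26 and 6.68 CPM in Alb/MDA-9, against 16.2, 16.9 and 15.7 CPM in WT. Of 14 tested detoxification genes 0 rose and 2 fell, the sulfotransferase gene Sult1e1, with 6.19, 4.66 and 7.29 CPM in Alb/MDA-9, against 14.0, 10.9 and 11.5 CPM in WT, and the glutathione transferase gene Gstm1, with 629.7, 612 and 483 CPM in Alb/MDA-9, against 786, 694 and 690.4 CPM in WT. Their share was 14.3%, against 14.4% of all tested genes (median log2 change -0.15).

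Of 33 genes of bile secretion and the canalicular apparatus 5 rose and 4 fell, or 27.3%, against 14.4% of all tested genes (median log2 change -0.033). Slc22a7, an organic anion carrier gene, had 3.48, 2.33 and 3.49 CPM in Alb/MDA-9, against 5.65, 6.92 and 3.96 CPM in WT (log2 change -0.83, SE 0.25, edgeR adjusted p = 0.0444), and Ezr, which links membranes to actin, had 35.1, 42.2 and 51.7 CPM in Alb/MDA-9, against 55.8, 61.5 and 58.5 CPM in WT (log2 change -0.45, SE 0.12). Myo5b, the motor that carries transporters to the canalicular membrane, rose, with 137, 142 and 139.7 CPM in Alb/MDA-9, against 99.3, 105 and 108 CPM in WT (log2 change 0.42, SE 0.068).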

How the data were processed

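RNA was sequenced from 3 Alb/MDA-9 and 3 WT libraries, made with a TruSeq kit and sequenced on a HiSeq3000, per the labels' protocols. Per the submitters' processing notes, the tools were STAR 2.7.9a, Trim Galore 0.6.6, edgeR 3.18.1 and FastQC 0.11.2, with GRCm38 (mm10) as build. Options and annotation release were not given in the sources used here. The deposited tables hold the authors' raw STAR read counts per gene, not normalised. The reverse-strand counts were used, which held 96.9% to 97.2% of stranded reads. Rows that name no gene held 34.2% to 37.5% of reads and were left out.

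GENCODE M21 (GRCm38) gave symbols, coordinates and exon lengths for 55141 of 55487 identifiers. Near-identical copies were sought with BLAST 2.17.0 (at least 95% identity over 100 bases). Genes passing filterByExpr (minimum count 10) were scaled by TMM and tested with edgeR 4.0.16 (R 4.3.3, quasi-likelihood F test, no covariates, 4 residual degrees of freedom), Alb/MDA-9 over WT, with Benjamini-Hochberg adjustment over all genes at 0.05. The SE is the fitted log2 change divided by the square root of F, and 95% intervals use it. The fit was also run on counts simulated from its own means and dispersions, which cannot show how an outlying library affects the calls.

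The alternatives were other scalings, no filter, a mean of at least 5 CPM, DESeq2 1.42.0, unstranded counts, a replicate block and leaving out each library. All bile acid genes were named, and in each further list the 4 changed genes with the largest log2 change. The genes, lists and tests were chosen with earlier results of these data known.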

Additional observations from a re-analysis of the deposited data

How the results depend on the processing

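Of the 12 called bile acid genes, 8 kept their direction and call in all 14 alternatives. Over all 442 combinations of a tested bile acid gene and an alternative, 386 kept direction and side of the threshold, 18 calls were lost, 13 were gained and 25 changed sign. With no filter on low counts some p-values fell far while the log2 changes hardly moved. For Akr1c6 the edgeR adjusted p was 3.49e-22 at a log2 change of -1.34, against 0.00394 at -1.33. For Abcc2 it was higher, 0.260 against 0.167. The cause of these shifts was not tested. The genes that changed sign had fitted changes near 0 or, for Klb, a wide interval. With upper-quartile factors these were Slc27a5 (-0.019), Slco1a1 (-0.024) and Abcg2 (-0.011). With library totals, where the median over all genes was -0.11 instead of -0.0015, they were Acox2 (-0.054), Hsd17b4 (-0.049), Slc27a5 (-0.084), Slco1a1 (-0.089), Abcg2 (-0.075) and Abcc4 (-0.036). With the stricter filter they were Slc27a5 (-0.0022) and Slco1a1 (-0.0064). Leaving out 1 library in turn gave log2 changes of -0.12 to 0.10 for Slco1a1, -0.63 to 0.20 for Klb, -0.038 to 0.35 for Hsd3b7, -0.041 to 0.14 for Acox2, -0.011 to 0.047 for Slc27a5, -0.013 to 0.10 for Abcg2, -0.32 to 0.0059 for Scp2, -0.20 to 0.22 for Abcc4 and -0.0018 to 0.11 for Hsd17b4.

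The number of bile acid genes that rose was 1 with upper-quartile factors, 1 with library totals and 1 with the stricter filter, and 1 to 3 without 1 library. The number that fell was 8 to 13 over all alternatives. The median log2 change of the tested bile acid genes was -0.31 with library totals, -0.29 without a filter (34 genes) and -0.28 by DESeq2, and -0.27 to -0.13 without 1 library, where that of the control genes was -0.47 to 0.20. Over all genes 525 rose and 1622 fell with library totals, against 977 and 943, and without 1 library (lowest without WT 2) 503 to 1178 rose and 515 to 1208 fell. Library totals test the same genes and libraries as the main fit but leave out the TMM factors. Those were 0.951, 0.951 and 0.992 in Alb/MDA-9 1, 2 and 3, against 1.046, 1.033 and 1.031 in WT 1, 2 and 3. Apart from these factors and from the number of genes or libraries that each setting tests, the cause was not tested.

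The groups share replicate numbers without a stated pairing. The deviations of same-numbered libraries correlated at -0.062 to -8.73e-05, and none of the 6 libraries correlated best with its own number. With the replicate number as a block 1 bile acid gene rose and 10 fell, and over all genes 775 rose and 826 fell. At this depth Cyp7a1, Slc51a and Nr0b2 could not be tested with the filter, and the intervals of Klb and Slco1a4 span more than 2-fold.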

Other observations

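The locus of Slc51a, which had no read on its own strand, held 571 reads on the opposite strand in Alb/MDA-9 and 527 in WT. It overlaps Pcyt1a there by 567 bases, and Pcyt1a had 113, 113 and 122 CPM in Alb/MDA-9, against 113, 114 and 114 CPM in WT. Slc51b overlaps Rasl12 on the opposite strand by 91 bases, and Rasl12 rose, with 4.03, 3.03 and 2.41 CPM in Alb/MDA-9, against 1.06, 1.59 and 1.72 CPM in WT (log2 change 1.12, SE 0.30, edgeR adjusted p = 0.0269). Cyp7a1 lies beside the mouse Sdcbp gene on chromosome 4, whose counts were close in both groups, at 175 ± 5.66 CPM in Alb/MDA-9 and 172 ± 6.94 CPM in WT (SD, n = 3 each).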
